A study of Mus musculus with 5 samples.

Results

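The miR-7 family was measured in the mouse hippocampus by 3 of the 569 miRNA probes on each array: mmu-miR-7a and mmu-miR-7b, which are guide strands, and mmu-miR-7a*, the passenger arm of a miR-7a hairpin. The members were taken by exact probe name from the rows that are not controls. The family was selected on the measured ratios of these probes between the array columns, so those ratios are described below, are not tested and support nothing by themselves. Small RNA came from the hippocampi of 8-week-old 129/Sv mice in which human BDNF had been knocked in. BDNF, a neurotrophin that neurons release, acts on their survival and on synaptic plasticity. Both alleles encoded either methionine (Met/Met, Cy3 dye) or valine (Val/Val, Cy5 dye) at a site where the human protein commonly varies. Each of 5 two-colour arrays paired 1 Met/Met mouse with 1 Val/Val mouse, which gives 5 mice per genotype and no wild-type mouse. Dyes were not exchanged, so dye and genotype cannot be told apart. The 2 intensity columns of each array are called Test and Cntrl, and neither the labels nor the headers say which genotype each one holds. Log2 ratios are given as Test over Cntrl throughout. Their direction between genotypes is not settled, and exchanging the columns would reverse each sign.

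A miRNA is cut from a hairpin whose 2 arms pair with each other. One arm, the guide, is loaded into Argonaute and directs it to mRNAs through its seed, bases 2 to 8, while the other arm, the passenger, is mostly degraded. The miR-7 guides are conserved in animals and are known in the mammalian brain as repressors of the transcription factor Pax6, and mouse miR-7b as a repressor of Fos in the hypothalamus. In neurons the circular RNA Cdr1as carries many miR-7 sites, and the long non-coding RNA Cyrano directs the degradation of miR-7.

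The mature sequences show which RNAs each probe can and cannot tell apart. They are given 5′ to 3′ from RefSeq (GRCm38.p6), with the seed in capitals. All 3 probes matched an entry of that table.
mmu-miR-7a-5p: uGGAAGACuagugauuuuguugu
mmu-miR-7b-5p: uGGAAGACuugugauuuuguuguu
mmu-miR-7a-1-3p: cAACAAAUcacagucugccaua
mmu-miR-7a-2-3p: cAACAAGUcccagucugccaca
mmu-miR-7b-3p: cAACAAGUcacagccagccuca

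Both guides carry the same seed, which no other miRNA target on the array shares. The miR-7a and miR-7b targets of the array are 23 bases long and are identical at 22 of them. They differ by A10U, with positions counted from 1 at the 5′ end, the miR-7a base first and the miR-7b base last. RefSeq gives miR-7b 24 bases, 1 more at its 3′ end than the array target. With 1 difference between them, the 2 guides may share signal on an array, and their separate values are uncertain to that extent. The miR-7a* target equals miR-7a-1-3p over its 22 bases and differs from miR-7a-2-3p at 3 (A7G, A10C and U21C) and from miR-7b-3p at 5. Outside the family, the nearest array target lay at an edit distance of 7 from miR-7a (miR-338-3p), of 8 from miR-7b (miR-300*) and of 9 from miR-7a* (miR-154*).

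The 3 hairpins show that the miR-7a* target matches 1 locus in full and the miR-7a target both miR-7a loci. Mature arms are in capitals.
Mir7-1: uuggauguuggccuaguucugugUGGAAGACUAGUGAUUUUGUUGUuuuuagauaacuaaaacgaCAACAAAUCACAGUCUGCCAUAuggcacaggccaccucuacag
Mir7-2: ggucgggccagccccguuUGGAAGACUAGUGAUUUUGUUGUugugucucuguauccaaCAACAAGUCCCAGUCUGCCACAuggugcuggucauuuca
Mir7b: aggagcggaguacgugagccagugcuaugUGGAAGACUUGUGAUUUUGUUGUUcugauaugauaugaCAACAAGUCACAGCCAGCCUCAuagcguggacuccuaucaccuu

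Mir7-1 lies at chr13:58392779-58392886 on the minus strand, within the bounds of Hnrnpk, a protein-coding gene for an RNA-binding protein. Mir7-2 lies at chr7:78888277-78888373 and Mir7b at chr17:56242988-56243098, both on the plus strand, and no other gene of the RefSeq table overlaps either. The miR-7a guide is the same in Mir7-1 and Mir7-2, so its probe reads the output of both. The miR-7a* target is the arm of Mir7-1, and the array has no probe for the other arm of Mir7-2 or of Mir7b. Since the target differs from that arm of Mir7-2 at only 3 bases, the 2 may share signal, which was not tested.

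Array 3 stood apart from the others. Over the 568 miRNAs tested, its log2 ratios correlated at −0.56 with those of array 5 and at −0.30 with those of array 1, and at 0.25 and 0.17 with those of arrays 2 and 4. Among the other 4 arrays the correlation was 0.18 to 0.63. The labels give all 5 arrays the same dyes. Empty spots on array 3 had a median of 38.2 in Test and 208 in Cntrl, lower in Test as on every other array. Blank signal does not show which mouse a column holds. The direction of array 3 between genotypes, relative to the rest, is thus not settled. Means are given below also without array 3 and with its sign turned.

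All 3 members were far above unspecific signal in both columns of every array. That level was set by 136 control spots with a mismatch or a shift, whose 95th percentile ran from 77.8 to 209 intensity units in Test and from 379 to 464 in Cntrl. Each probe has 6 spots per array, and the values that follow are their means in linear intensity units, not normalized.

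In Test, mmu-miR-7a read 18637, 26624, 17965, 14739 and 21856 on arrays 1 to 5. In Cntrl it read 20273, 20213, 19798, 13095 and 17880. Array 4 was the lowest in both columns, and the columns overlapped. The lowest of these 10 values was 32.0 times the mismatch level of its own column.

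The passenger arm mmu-miR-7a* read 1944, 2912, 1543, 1157 and 1146 in Test. In Cntrl it read 2191, 2712, 1863, 1399 and 2034. The 2 columns overlapped, and the lowest value was 3.42 times the mismatch level.

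In Test, mmu-miR-7b read 6995, 12499, 2910, 2119 and 7950. In Cntrl it read 6728, 7748, 6919, 2100 and 4506. The Test values of arrays 3 and 4 and the Cntrl value of array 4 were low, while the other 7 values lay between 4506 and 12499. The lowest was 5.13 times the mismatch level of its column.

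**Figure D1:**
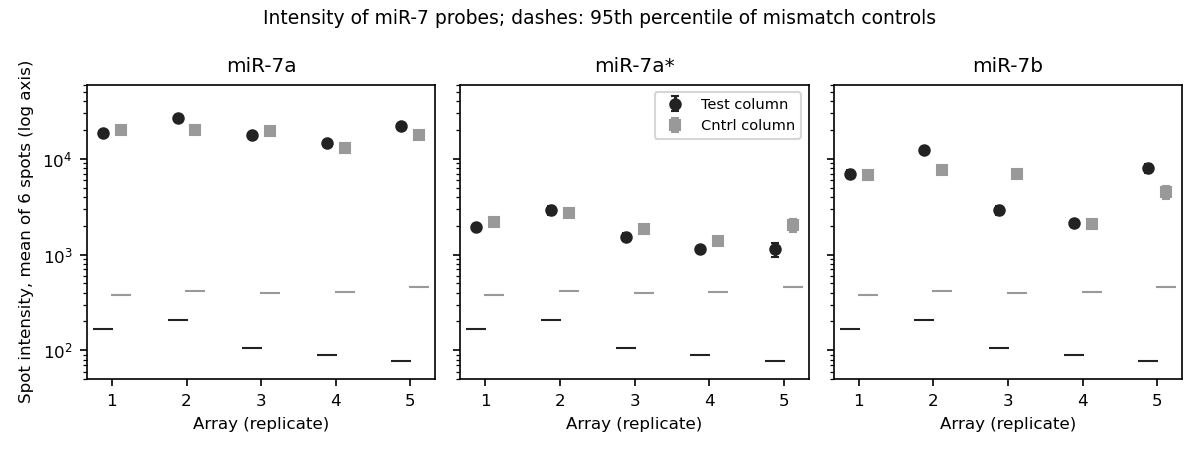
Mean spot intensity of miR-7a, miR-7a* and miR-7b (log axis) on arrays 1 to 5, Test column as circles and Cntrl column as squares, with bars for the SD of 6 spots and dashes for the 95th percentile of the mismatch controls of that column. All points lie above their dashes, and miR-7b drops to 2910 in Test on array 3 and to 2119 and 2100 on array 4.

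Levels within 1 column compare 5 mice of the same genotype only if array 3 has its genotypes in the same columns as the others, which is not settled. To set arrays against each other, the log2 intensities of all miRNAs, with no background correction, were quantile-normalized over the 5 arrays, separately in each column. On this scale miR-7b stood in Test at 12.33, 13.00, 11.86, 11.54 and 13.30 on arrays 1 to 5, a range of 3.40-fold. In Cntrl it stood at 12.51, 12.55, 12.81, 11.66 and 12.11, a range of 2.22-fold. Array 4 was the lowest in both columns. The highest was array 5 in Test and array 3 in Cntrl. Over the 4 arrays other than array 3, miR-7b kept its range of 11.54 to 13.30 in Test and ran from 11.66 to 12.55 in Cntrl.

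Among the 318 miRNAs above the mismatch controls, the range of miR-7b was the 8th widest in Test and the 7th widest in Cntrl. Only 2.52% of them in Test, and 2.2% in Cntrl, had a range at least as wide, where the median range was 0.53 and 0.28 on the log2 scale. These shares describe the 5 arrays and are not a test. The levels include blank signal, with empty-spot medians of 31.4 to 45.7 units in Test and 208 to 361 in Cntrl. Ranges are therefore not set against each other between columns. Levels of miR-7a ranged from 14.00 to 14.69 in Test and from 13.98 to 14.36 in Cntrl, so 30.8% and 29.9% of the 318 were at least as variable. Levels of miR-7a* ranged from 10.43 to 10.81 in Test and from 10.89 to 10.99 in Cntrl, among the steadier miRNAs, with 71.7% and 92.5% at least as variable. In whole hippocampus, fewer cells carrying a miRNA and less of it per cell cannot be told apart.

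**Figure D2:**
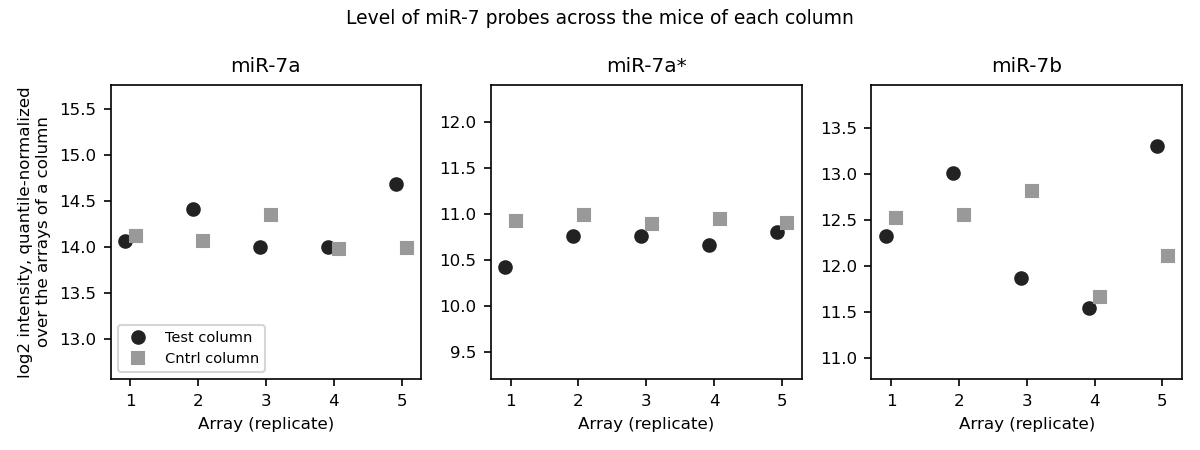
Level of each probe on arrays 1 to 5 (log2 intensity, quantile-normalized over the 5 arrays of a column), Test as circles and Cntrl as squares, each panel spanning the same number of log2 units. The miR-7b points run from 11.54 to 13.30 in Test and from 11.66 to 12.81 in Cntrl, while the miR-7a* points stay between 10.43 and 10.99.

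The ratios between columns were taken after background correction and loess, which removes the trend of the ratio with intensity on each array. For miR-7a* the log2 ratio was 0.11, 0.23, 0.44, 0.27 and 0.31 on arrays 1 to 5. It was above 0 on 5 of 5 arrays, with a mean of 0.27 ± 0.12 (SD, n = 5), or 1.21-fold higher in Test. Of all 568 miRNAs tested, 8.63% were higher in Test on all 5 arrays and 11.1% were lower on all 5. Since the passenger arm was chosen with this ratio known, nothing is read from it being one of them.

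For miR-7a the log2 ratio was −0.09, 0.34, −0.20, 0.10 and 0.58. Arrays 1 and 3 lay below 0 and the other 3 above it, and the mean of 0.15 ± 0.32 (SD, n = 5), or 1.11-fold, was smaller than the spread between arrays. Without array 5 that mean was 0.04, without array 2 it was 0.10, and without array 3 it was 0.23.

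For miR-7b the log2 ratio was 0.11, 0.65, −0.90, 0.37 and 1.49. Array 3 alone lay below 0. The mean of 0.35 ± 0.87 (SD, n = 5), or 1.27-fold, was smaller than the spread between arrays. It was 0.66 without array 3 and 0.06 without array 5. With both left out, the mean over the other 3 was 0.38 ± 0.27. Of the 568 miRNAs, 1.06% had an SD between arrays at least as large as that of miR-7b, itself included. The share was 16.4% for miR-7a and 49.8% for miR-7a*. The 568 include miRNAs that were not above the mismatch controls. These SDs come from the ratios on which the family was chosen, and nothing is read from the shares.

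**Figure D3:**
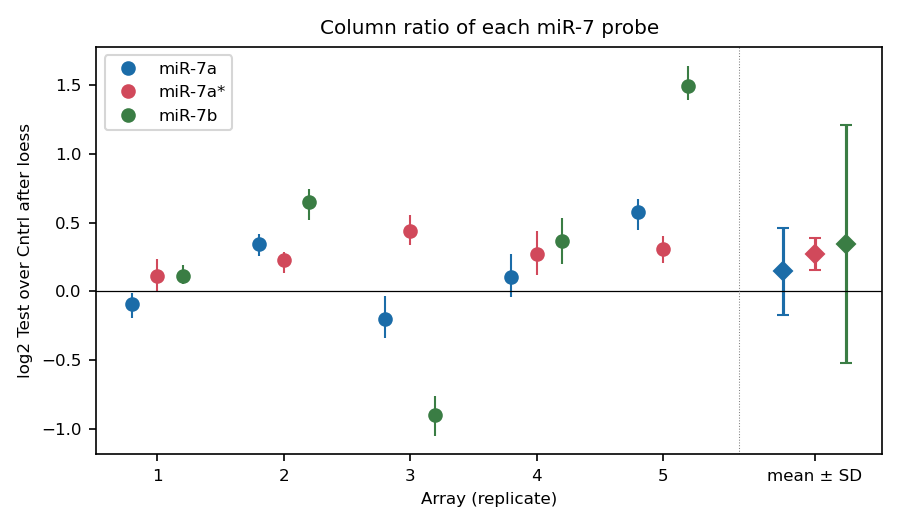
Log2 Test over Cntrl after loess for miR-7a, miR-7a* and miR-7b on arrays 1 to 5, as the mean of 6 spots with a line from the lowest to the highest spot, and at the right the mean and SD over arrays. The miR-7a* points are all above 0, and miR-7b spans from −0.90 on array 3 to 1.49 on array 5.

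With the sign of array 3 turned, the mean log2 ratio was 0.10 ± 0.31 for miR-7a*, 0.23 ± 0.25 for miR-7a and 0.70 ± 0.53 for miR-7b, and miR-7a* then had 1 array below 0. Probes for 5S ribosomal RNA, a larger RNA, had log2 ratios before normalization of −1.19, −0.23, 0.69, −0.03 and −2.48 on arrays 1 to 5. Array 3 was the highest and array 5 the lowest. Whole arrays were shifted on this scale, which also lacks background correction. Their typical miRNA ratio (median) stood at −1.33, −1.29, −1.85, −2.02 and −2.84, so array 5 was lowest there too. The 5S ratios were not corrected for that shift, so their order is not set against that of miR-7b. The part of 5S carry-over in the miR-7b ratios was not tested.

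Spots within an array differed far less than arrays did for the guides. For miR-7b the SD of the 6 spot ratios lay between 0.06 and 0.14 on the 5 arrays, against 0.87 between arrays. On array 3 its spots ran from −1.05 to −0.76, and on array 5 from 1.40 to 1.64. Spots in the upper and lower parts of the slide gave −0.81 and −0.98 on array 3, and 1.40 and 1.59 on array 5. For miR-7a the spot SD lay between 0.07 and 0.11, against 0.32 between arrays. For miR-7a* the spot SD was between 0.07 and 0.11, close to its SD of 0.12 between arrays, and 6 of 6 spots were above 0 on arrays 2 to 5 and 5 of 6 on array 1.

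The 2 guides had the same order of arrays, from array 3 as the lowest through arrays 1, 4 and 2 to array 5 as the highest. Their array targets differ at 1 base and may share signal, so this order is not read as 2 separate results. The order differed for the passenger arm, which was lowest on array 1 and highest on array 3. The passenger arm was higher than its guide by 0.12 ± 0.35 on the log2 scale, positive on 3 of 5 arrays. That difference was 0.63 on array 3 and −0.27 on array 5, and without array 3 it was −0.0046. The difference of miR-7b from miR-7a was 0.20 ± 0.58, positive on 4 of 5 arrays, with −0.70 on array 3 and 0.92 on array 5. Without array 5 it was 0.02, and without array 3 it was 0.42. Both differences were smaller than their spread between arrays. On array 3 the 2 guides were lower in Test while the passenger arm was higher. Of 44 guide and passenger pairs with both arms above the mismatch controls, 30 had a higher mean ratio on the passenger arm, with a median difference of 0.10, and the miR-7a pair ranked 17th from the highest.

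In the fit across all 568 miRNAs (limma, Benjamini-Hochberg), 0 of 3 members passed an adjusted p of 0.05, as did 0 of 568 in all (0%). At an unadjusted p of 0.05 the count was 1 of 3, against 110 of 568 (19.4%). The member at that level was miR-7a*. With array weights, which gave arrays 3 and 5 weights of 0.47 and 0.42 against 1.36 to 2.21 for the others, 21 miRNAs passed the adjusted threshold, miR-7a* among them. These counts come from the contrast in view when the family was chosen, and nothing is read from them about the members.

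Without any normalization between the columns, the mean miR-7a* ratio was below 0. Before loess its log2 ratio was −0.05, 0.21, −0.16, 0.00054 and −0.60 on the 5 arrays, with a mean of −0.12. The 51 probes closest to it in intensity had medians of −0.24, −0.04, −0.58, −0.26 and −0.93 there. The arm thus read above its neighbours in intensity on 5 of 5 arrays, and below 0 on 3 of them. For miR-7b the same comparison gave −1.22 against −0.41 on array 3 and 0.92 against −0.61 on array 5. Before loess the median over all miRNAs lay between −1.14 and −0.44 per array. When arrays were only centred on that median, with no correction for intensity, miR-7a stood at 0.90, miR-7a* at 0.64 and miR-7b at 0.90, with 189 miRNAs past the adjusted threshold, miR-7a and miR-7a* among them. Before loess the 51 probes nearest to miR-7a in intensity had medians of −0.25 to 0.13 per array, above the median of all miRNAs on each one.

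**Figure D4:**
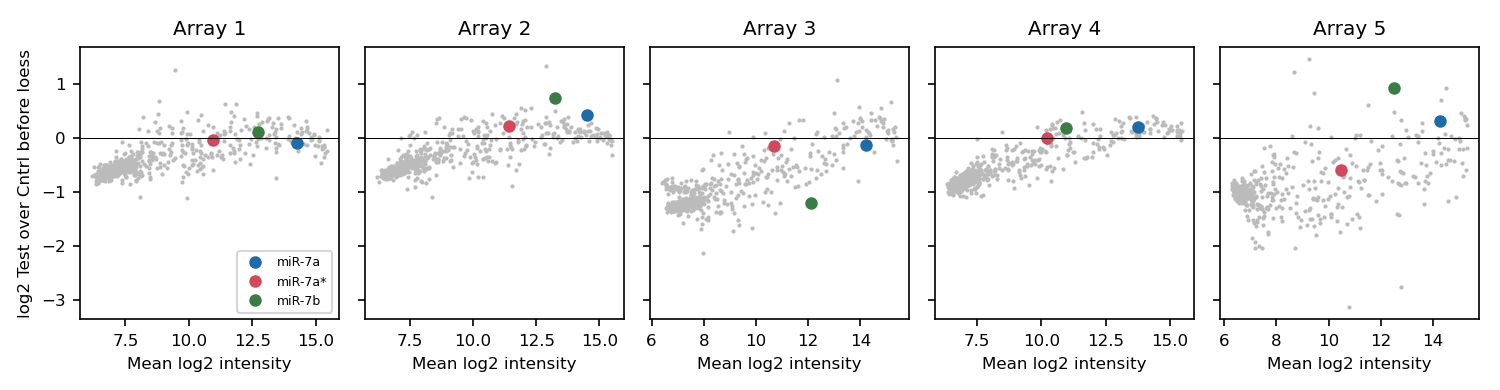
Log2 Test over Cntrl before loess against mean log2 intensity for all 569 miRNAs (grey) on arrays 1 to 5, with miR-7a, miR-7a* and miR-7b in colour. Ratios are higher for brighter miRNAs, and miR-7a* lies in the upper part of the grey points of its own intensity while falling below 0 on arrays 1, 3 and 5.

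The authors' deposited value table gave almost the same ratios for the members. Its values had the sign of Test over Cntrl, with a correlation to the loess ratios of 0.965 to 0.985 per array over the miRNAs above the mismatch controls. Over all its miRNAs the correlation was 0.773 to 0.926, and on array 5 its SD was 0.72, against 0.40 after loess. In the value table miR-7a* was at 0.09, 0.24, 0.44, 0.24 and 0.32, with a mean of 0.27 ± 0.13 (SD, n = 5). The mean of miR-7a there was 0.12 ± 0.35 and that of miR-7b was 0.32 ± 0.86, with −0.92 on array 3 and 1.46 on array 5. The column medians of that table ran from −0.05 to −0.02. Its slope on the loess ratios was 1.10 to 1.18 over the miRNAs above the mismatch controls, close to a log2 scale there. The normalization behind the table and the genotype direction stay unknown.

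**Figure D5:**
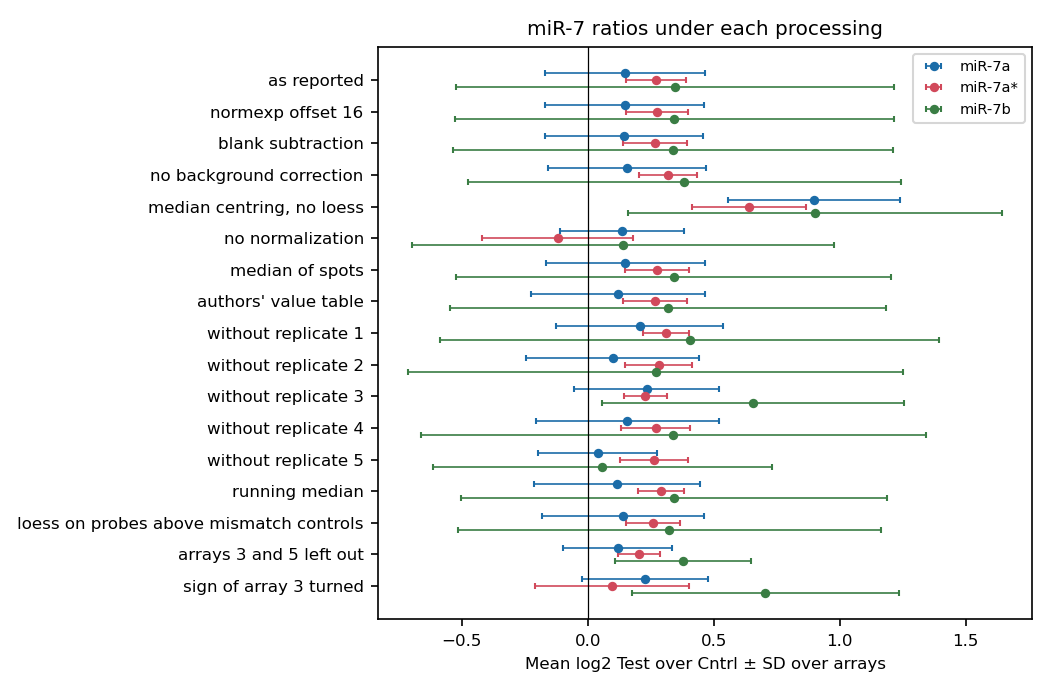
Mean log2 Test over Cntrl with its SD over arrays for miR-7a, miR-7a* and miR-7b under each processing. The miR-7a* mean stays positive except with no normalization, where it is −0.12, and the miR-7b bars cross 0 as reported.

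The miRNAs most like each member were found by the root mean square difference of the 5 array ratios, among the other 317 miRNAs above the mismatch controls. Nearest to miR-7b were miR-374 (0.30 on the log2 scale), miR-199a-3p (0.34), miR-98 (0.36), miR-672 (0.39) and miR-335-3p (0.39). Each of these 5 was below 0 on array 3 and highest on array 5, a likeness that the choice itself favours. The ratio of miR-374 was −0.85 on array 3 and 1.84 on array 5. That of miR-98, a let-7 family guide, was −0.83 and 0.94. In Cntrl, 3 of the 5 were at their lowest on array 4, as miR-7b was: miR-374 (9.63), miR-98 (13.75) and miR-335-3p (8.52). In Test, where miR-7b was also lowest on array 4, miR-335-3p alone was lowest there (6.54), and the other 4 were lowest on array 3.

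Nearest to miR-7a were miR-421 (0.09), miR-486 (0.12), miR-409-3p (0.14), miR-382 (0.15) and miR-335-5p (0.16). All 5 had a ratio below 0 on array 3 and were highest on array 5, as miR-7a was. Nearest to miR-7a* were miR-337-3p (0.15), miR-20b (0.16), miR-324-3p (0.16), miR-146b (0.17) and miR-27b (0.17), each above 0 on 5 of 5 arrays. Since neighbours were chosen for likeness to a member's ratios, nothing is read from the signs and orders they share with it. The family members were not each other's nearest: from miR-7b, miR-7a ranked 18th at 0.55 and miR-7a* 141st at 0.82 of 317.

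Of miRNAs tied to the same RNA circuit, miR-671 was measured on both arms. The miR-671-5p arm, which directs the cleavage of Cdr1as, had ratios of 0.35, 0.11, −0.27, 0.01 and 0.38, with a mean of 0.12 ± 0.27 (SD, n = 5). It was lowest on array 3 and highest on array 5, as the miR-7 guides were. That order was not particular to them: miR-1, miR-15b and miR-21 had it too. Its share over all miRNAs was not counted, and nothing is read from it. The other arm, miR-671-3p, was at −0.07 ± 0.05 and below 0 on 5 of 5 arrays. Neither passed the adjusted threshold in limma (adjusted p = 0.511 and 0.248), and neither had an unadjusted p below 0.05.

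The miR-7 guides are known to be abundant in the hypothalamus and pituitary, so miRNAs of those endocrine tissues were read beside them. Of 6 such miRNAs, miR-375 alone lay above the mismatch controls in 1 column on at least 3 arrays. MiR-141, miR-200a, miR-200b, miR-200c and miR-429 did not, which does not exclude signal above that level on fewer arrays. The summed intensity of the 6 ran from 532 to 1357 in Test and from 2416 to 3288 in Cntrl. No blank signal was subtracted, and 1 empty spot had a median of 31.4 to 45.7 in Test and 208 to 361 in Cntrl. The 2 sums are therefore not set against each other. The ratio of miR-375, an endocrine miRNA, was −0.0013, 0.04, −0.21, −0.06 and 1.08 on arrays 1 to 5 (mean 0.17 ± 0.52, SD, n = 5). It was lowest on array 3 and highest on array 5 like that of miR-7b, an order that miR-1, miR-15b and miR-21 also had. The median of the 6 was 0.13, 0.31, −0.08, 0.03 and −0.72 on arrays 1 to 5. On array 5, where miR-375 was high, 4 of the 6 were below 0, among them miR-200a (−0.68), miR-200b (−0.86) and miR-200c (−0.75). The part of such miRNAs in the miR-7b ratios was not tested. None of the 6 had an unadjusted p below 0.05, 2 had positive and 4 negative means, and their median was −0.03 against 0.0029 over all 568.

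Of 12 other neuron-enriched miRNAs, all above the mismatch controls, 3 had positive and 9 negative means, with a median of −0.08. None passed the adjusted threshold, while 1 was higher and 3 were lower in Test at an unadjusted p of 0.05, against 8.63% and 10.7% of all miRNAs. They were miR-9 at −0.17 ± 0.07 (limma adjusted p = 0.135), miR-383 at −0.48 ± 0.32 (adjusted p = 0.157), miR-218 at −0.08 ± 0.04 (adjusted p = 0.222) and miR-488 at 0.32 ± 0.21 (adjusted p = 0.152). MiR-9, an abundant neural miRNA, and miR-218, a neuronal one, had ratios below 0 on 5 of 5 arrays. The median of the 12 was −0.03 on array 3 and −0.23 on array 5.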

How the data were processed

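The authors deposited linear spot intensity, not normalized (per the file headers), for a Test and a Cntrl column on 5 arrays of 3968 spots; the background columns are 0. Per the labels' protocols, RNA was extracted with the mirVana kit and small RNA was labelled. The sources used here name no scanner or software. The deposited value table holds a log2 ratio per miRNA, by comparison with the intensities. The intensities were corrected by normexp (offset 50), normalized by loess with control spots at weight 0, and averaged over 6 spots. A miRNA was tested if it exceeded the 95th percentile of 266 empty spots in 1 column on at least 3 arrays, which 568 of 569 and all 3 members did. Intercepts were fitted and moderated by eBayes (limma 3.58.1, R 4.3.3, two-sided). The fit was tested on simulated data whose noise was independent between arrays and between miRNAs. The measured ratios correlated between arrays, so nothing is read from that run about the counts given here. Labels call the arrays biological replicates. The number of arrays limits the precision. Figures used matplotlib 3.10.9.

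The members, the miRNA lists and the rules were chosen with earlier results of these data known. Named were the members, the 5 miRNAs nearest to each, the miR-671 and endocrine lists, up to 4 neuron-enriched miRNAs with the largest moderated statistic, and markers of other cells. Alternatives covered background, normalization, spot summary, filter, variance model, array weights, pairing and left-out arrays. The quantile-normalized levels, a running median, loess on brighter probes, arrays 3 and 5 left out together and a turned sign for array 3 were chosen after seeing the data. Against the 99th percentile of the mismatch controls the lowest member value was still 3.33 times that level.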

Additional observations from a re-analysis of the deposited data

Results flagged for a closer look

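The Cntrl intensity of miR-7a on array 4 was 13.68 on the log2 scale (13095 units), set apart below the other 4 arrays by Dixon's criterion. After quantile normalization of the Cntrl column, array 4 remained the lowest at 13.98, next to 13.99 on array 5, and no longer stood apart. Of 18 sets of 5 values checked this was the 1 that stood out, and chance alone flags about 1 in 20.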

How the results depend on the processing

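All 3 member ratios kept a positive mean under each alternative except miR-7a* with no normalization (−0.12). With no normalization and with median centring, miR-7a* was below miR-7a by a log2 difference of −0.26, and median centring put miR-7a at 0.90 and miR-7a* at 0.64, where 2 members passed the adjusted threshold. That difference was also negative without array 3 (−0.0046) and with the sign of array 3 turned (−0.13), where miR-7a* stood at 0.10. Leaving out 1 array gave 0.04 to 0.23 for miR-7a, 0.23 to 0.31 for miR-7a*, 0.06 to 0.66 for miR-7b, −0.0046 to 0.22 for miR-7a* minus miR-7a and 0.02 to 0.42 for miR-7b minus miR-7a. The count past an adjusted p of 0.05 was 0 as reported, 2 with normexp offset 16, 2 in the authors' value table, 2 with loess on brighter probes, 1 with arrays 3 and 5 left out, 21 with array weights (1 member), 189 with median centring and 442 with no normalization. It was 0 to 5 with 1 array left out, the 5 being without array 3. The count at an unadjusted p of 0.05, 110 as reported, was 67 with blank subtraction, 269 with median centring, 446 with no normalization, 55 of 318 with the filter on mismatch controls, 170 with array weights and 58 to 140 with 1 array left out. The array pairs the columns, and without that replicate block it was 59, with 0 past the adjusted threshold as before. The causes of these shifts were not tested. The lowest member values were 32.0 (miR-7a), 3.42 (miR-7a*) and 5.13 (miR-7b) times the mismatch level, and the background alternatives moved no member mean by more than its SD.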

Other observations

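Markers of other cells that a dissected hippocampus can carry were read on the same arrays, with no limma adjusted p under 0.05 among them. The 2 endothelial miR-126 arms had positive means with a median ratio of 0.24, and 1 of them had an unadjusted p below 0.05. The 4 microglial and leukocyte miRNAs also had positive means, with a median of 0.12, 1 of them above the mismatch controls and 1 at an unadjusted p below 0.05. The 2 choroid plexus miRNAs had a median of 0.21, with 0.70 on array 5 and 1 of them at an unadjusted p below 0.05. On array 5 miR-204 was at 1.15 and miR-211 at 0.26. For the 2 oligodendrocyte miRNAs the median was −0.02, with 0.32 on array 3 and −0.41 on array 5. For the 2 red blood cell miRNAs it was 0.21, with array medians from −0.12 to 0.65. In each of the choroid plexus, oligodendrocyte and red blood cell pairs, only 1 miRNA lay above the mismatch controls. Each of these medians is thus the average of that miRNA and 1 that did not. Of all 568 miRNAs, 19.4% had an unadjusted p below 0.05.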
